A study of Mus musculus with 6 samples.

Results

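The genes described here encode the centromere, the kinetochore, the spindle checkpoint and the chromosomal passenger complex, the machinery that attaches chromosomes to the mitotic spindle and delays their separation until every chromosome is attached. They were chosen by name, with earlier results of these data known. The 35 gene symbols form 4 groups: 14 genes of the inner centromere network, 11 of the outer kinetochore, 6 of the spindle checkpoint and 4 of the passenger complex. All 35 were among the 17463 genes in the deposited tables, and all 35 passed the filter on low counts, which left 11277 genes for testing. RNA-seq was available for 3 control samples and 3 samples given 40 µM cholesterol for 30 h. In both groups, fetal liver cells of C57BL/6J mice that lacked TER119, a surface marker of maturing erythroid cells, were purified and cultured in medium with erythropoietin (Epo). The study's methods add that TER119+ cells were sorted from these cultures before RNA extraction. The labels call the controls untreated, whereas the study describes them as vehicle-treated. The labels do not say whether the samples of a group came from separate cultures, litters or pools of animals. The study describes the figure that includes this RNA-seq as resting on independent experiments, without saying how the libraries relate to them. The p-values therefore measure only the spread between these samples, which may be technical.

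Centromeric chromatin is marked by the histone H3 variant CENP-A, on which a constitutive network of CENP proteins assembles. This inner network carries the outer kinetochore, whose Ndc80 complex grips microtubules and whose Mis12 complex joins the Ndc80 complex to the centromere. Unattached kinetochores recruit the checkpoint proteins, which inhibit the anaphase-promoting complex, while Aurora B in the passenger complex destabilizes faulty attachments. Most of these genes are transcribed in a cell cycle-dependent manner, with high levels in S, G2 or M phase. In the erythroid lineage this machinery serves a small number of last divisions, after which the cells stop cycling and lose their nucleus.

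The 6 libraries held 19826797 to 20061702 counts each. The 13 erythroid markers, globin genes among them, summed to between 156400 and 209400 CPM (counts relative to the library size after TMM normalization) in controls and between 141000 and 186900 CPM with cholesterol. Markers of other cells were low but uneven. The 10 neutrophil markers summed to 74.7, 261 and 698 CPM in controls 1 to 3 and to 45.0, 114 and 289 CPM in cholesterol samples 1 to 3. The 9 macrophage markers ranged from 18.1 to 129 CPM in controls and from 12.9 to 57.1 CPM with cholesterol, the 6 mast cell and basophil markers from 1.47 to 18.5 and from 0.493 to 2.86 CPM, the 6 megakaryocyte markers from 64.2 to 83.3 and from 60.7 to 69.3 CPM, and the 5 hepatocyte markers from 93.2 to 267 and from 64.4 to 226 CPM. Every one of these markers had at least 1 count in some sample, so no defining marker was at 0 throughout. Control 3 had the highest sum in each of the 5 lists of other cells, and the log2 fold changes of the 4 groups are given below with their ranges over fits that leave out 1 of the 6 samples. Within same-numbered pairs the cholesterol sample had the lower sum of erythroid, neutrophil, macrophage, mast cell and megakaryocyte markers in all 3 pairs, with erythroid sums of 168100 and 141000 CPM in pair 1, 156400 and 146800 CPM in pair 2 and 209400 and 186900 CPM in pair 3. The part of these shifts in the results was not tested.

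Promoter sequence is shown for 1 gene of each group because many mitotic genes share promoter elements. The genes were those with a single RefSeq promoter window, control and cholesterol values that did not overlap and, within their group, the smallest p in the model with the replicate number. Each line gives the 250 bases before the start site of the RefSeq window (GRCm38.p6), 5′ to 3′ on the strand of the gene. Capitals mark the cell cycle genes homology region (CHR; TTTGAA or TTTAAA) and the CCAAT box, searched on both strands, where a CCAAT box on the opposite strand reads ATTGG. A CHR is known as a binding element of the MuvB complexes that govern late cell cycle genes, and the CCAAT box as an element bound by NF-Y.
Cenpa, chr5:30666636-30666885, plus strand: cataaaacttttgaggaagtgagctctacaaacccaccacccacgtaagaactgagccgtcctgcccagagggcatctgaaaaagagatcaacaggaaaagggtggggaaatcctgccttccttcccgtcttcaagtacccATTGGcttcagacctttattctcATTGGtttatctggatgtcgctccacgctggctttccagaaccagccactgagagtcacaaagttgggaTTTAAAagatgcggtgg
Zwint, chr10:72654596-72654845, plus strand: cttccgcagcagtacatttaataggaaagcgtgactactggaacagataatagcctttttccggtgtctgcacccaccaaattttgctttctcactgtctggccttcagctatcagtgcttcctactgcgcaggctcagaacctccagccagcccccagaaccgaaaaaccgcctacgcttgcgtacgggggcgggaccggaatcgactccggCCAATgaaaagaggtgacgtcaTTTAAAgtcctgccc
Bub1, chr2:127831860-127832109, minus strand: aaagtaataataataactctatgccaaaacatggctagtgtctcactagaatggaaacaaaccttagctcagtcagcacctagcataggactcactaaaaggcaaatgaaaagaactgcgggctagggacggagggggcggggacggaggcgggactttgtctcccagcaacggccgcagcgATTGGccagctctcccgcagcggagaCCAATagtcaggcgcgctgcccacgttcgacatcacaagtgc
Cdca8, chr4:124936918-124937167, minus strand: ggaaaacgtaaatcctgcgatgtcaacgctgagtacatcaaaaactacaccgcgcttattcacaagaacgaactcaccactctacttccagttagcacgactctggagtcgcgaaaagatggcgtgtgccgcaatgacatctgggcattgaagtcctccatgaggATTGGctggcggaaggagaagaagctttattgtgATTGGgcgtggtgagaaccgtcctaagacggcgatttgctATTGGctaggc
The annotated genes behind these windows lie at chr5:30666877-30674837 (Cenpa), chr10:72654846-72674964 (Zwint), chr2:127800197-127831859 (Bub1) and chr4:124918465-124936917 (Cdca8). The windows of Zwint, Bub1 and Cdca8 end where the gene begins, whereas the last 9 printed bases of Cenpa lie inside the annotated gene, which begins upstream of the start site of the window. Distances are counted from the start site of the window. In Cenpa a CHR began 17 bases before the start site, with CCAAT boxes at 86 and 109 bases before it. Zwint had a CHR at 15 bases and a single upstream CCAAT box at 37 bases. Bub1 had CCAAT boxes at 42 and 68 bases but no CHR in its window. In Cdca8 the upstream part held 3 CCAAT boxes, at 11, 51 and 85 bases, and its CHR match lay at or after the start site, outside the printed stretch. Further matches there were a CHR in Cenpa and CCAAT boxes in Zwint and Cdca8.

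Of the 35 genes, 31 had a RefSeq window of 300 bases (250 before and 50 after the start), and no window was given for Spc24, Nsl1, Incenp and Aurkb. A CHR was found in 17 of 31 genes (54.8%), against 22.4% of the 9032 tested genes with a window, 28.2% of protein-coding genes and 30.6% of all genes with a window. A CCAAT box was found in 22 of 31 (71.0%), against 43.8%, 42.3% and 41.1%. Both elements occurred together in 14 of 31 (45.2%), against 10.8%, 12.7% and 13.4%. The genes with both were Cenpa, Cenpc1, Cenpl, Cenpn and Cenpw of the inner network, Spc25, Pmf1, Zwint, Cenpe and Cenpf of the outer kinetochore, Bub1b, Bub3 and Ttk of the checkpoint, and Cdca8 of the passenger complex. E2F motifs (TTTGGCGC, TTTCCCGC, TTTGCCGC or TTTCGCGC, on both strands) were found only in Cenpl, Cenpm and Dsn1, or 9.68% of the genes, against 4.90%, 3.29% and 2.60%. These counts describe the letters in the windows, and motif presence was not compared with the cholesterol values.

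The genes were well expressed. On the scale of the deposited normalized values, which divide by transcript length and were read as FPKM, the mean over the 6 samples ran from 7.21 for Cenpo to 292 for Birc5, with a median of 37.3 against 7.55 for all tested genes. The mean count ran from 459 to 8393, so that each gene was measured far above its counting floor. The FPKM values of the 35 genes summed to 2246, 2324 and 2325 in controls 1 to 3 and to 2271, 2299 and 2190 in cholesterol samples 1 to 3. These sums overlapped between the groups, with cholesterol sample 3 lowest.

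**Figure D1:**
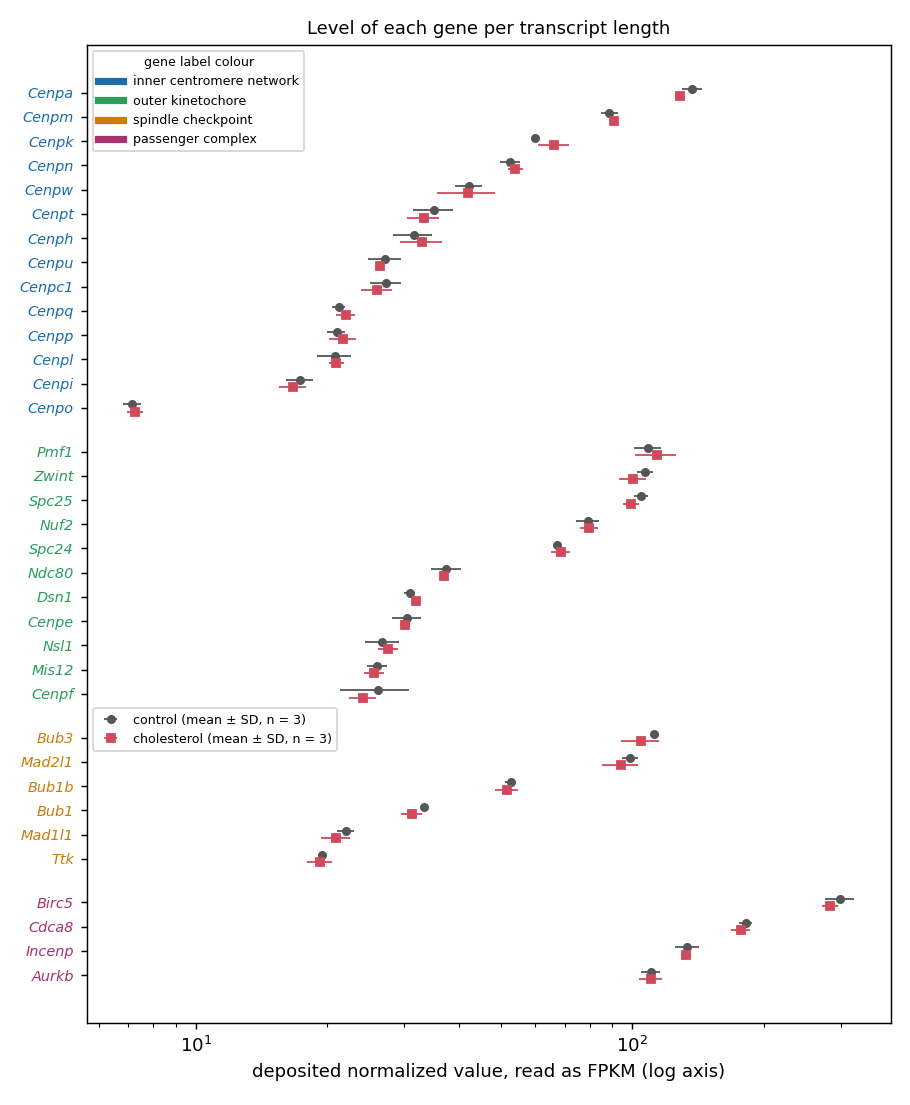
Level of each of the 35 genes as the deposited normalized value, read as FPKM, on a log axis. Points give the mean and bars the SD of 3 control (grey circles) and 3 cholesterol (red squares) samples. The 4 passenger complex genes sit between 110 and 292 FPKM over all samples, and the control and cholesterol means of every gene lie close to each other.

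The passenger complex was the most abundant group at the RNA level. Birc5 (survivin, which docks the complex on centromeric chromatin) had 299 ± 22.6 FPKM in controls and 284 ± 12.5 FPKM with cholesterol (SD, n = 3 each). Cdca8 (borealin) had 182 ± 6.07 and 177 ± 8.54 FPKM, Incenp, the scaffold that activates the kinase, 134 ± 8.33 and 132 ± 2.92 FPKM, and Aurkb, the kinase itself, 110 ± 5.32 and 110.5 ± 6.67 FPKM. Cenpa, at 137 ± 7.30 and 129 ± 1.74 FPKM, was the highest of the inner network. Over the 6 samples its mean was 1.48-fold that of Cenpm, the next highest, and the other 13 genes of the network had a median of 26.8 FPKM. In the outer kinetochore Pmf1 (111 FPKM), Zwint and Spc25 were highest and Cenpf (25.1 FPKM) lowest. In the checkpoint Bub3 (109 FPKM), a WD40 adaptor for Bub1 and BubR1, was highest, and Ttk (19.3 FPKM), the Mps1 kinase that starts checkpoint signalling, was lowest.

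Within complexes whose proteins assemble together, RNA levels were mostly unequal. Spc25 exceeded Ndc80 by 2.58- to 2.93-fold in FPKM in the Ndc80 complex, whose other members are Nuf2 and Spc24. Pmf1 exceeded Mis12 by 3.70- to 5.08-fold in the Mis12 complex, with Dsn1 and Nsl1 near Mis12. Birc5 exceeded Aurkb by 2.37- to 3.09-fold. In the inner network, Cenpm exceeded Cenpi by 4.49- to 5.76-fold among the CENP-H, I, K and M genes, Cenpu exceeded Cenpo by 3.39- to 4.21-fold among the CENP-O, P, Q and U genes, and Cenpn exceeded Cenpl by 2.40- to 2.74-fold. In each of these complexes the highest member exceeded the lowest in all 6 samples. Cenpt and Cenpw, which encode a histone fold pair that reaches out to the Ndc80 complex, were closer to each other, with a Cenpw to Cenpt ratio of 0.954 to 1.49. Cenpw exceeded Cenpt in 4 of 6 samples, and both samples numbered 3 had the opposite order. The ratios compare FPKM values per length and rest on the authors' transcript lengths. For Cenpu, Cenpo and Cenpp the level is uncertain, because 23.3%, 19.2% and 10.7% of their possible 50-base reads occur also in a gene on the opposite strand (Primpol, Adcy3 or Ptrhd1, and Ippk), and whether counting used the strand is not stated. For every other gene of the 35 this share was at most 5.69%.

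The comparison of cholesterol with control asked whether excess cholesterol altered these genes. None of the 35 genes passed an adjusted p of 0.05 in edgeR's quasi-likelihood test with Benjamini-Hochberg adjustment over all tested genes. The adjusted p was at least 0.9998 for each of them, and none had an unadjusted p under 0.05. Among all 11277 genes this test called 0.00887% higher (1 gene) and 0% lower with cholesterol, and 297 genes had an unadjusted p under 0.05, so it called next to nothing anywhere. With the replicate number as a block, edgeR called 1.65% of all genes higher and 5.2% lower, and again 0 of the 35. Of the 35 genes, 6 (17.1%) had an unadjusted p under 0.05 in that model, against 19.6% of all genes. DESeq2 also called 0 of the 35, with 1 gene under an unadjusted p of 0.05 without the block and 4 with it, where it called 0.0266% of all genes higher and 0.248% lower without the block, and 0.364% higher and 2.2% lower with it. Limma on log2(FPKM + 1) called 0 of the 35, with 0 under an unadjusted p of 0.05, and called 0.00887% of all genes higher and 0% lower, so that like the edgeR fit with condition alone it called next to nothing.

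The size of the differences can be bounded, gene by gene. Fitted changes ran from -9.46% for Cenpf to 8.34% for Cenpk, and the 95% intervals of the 35 genes lay within -29.3% and 22.6% in the model with condition alone and within -15.9% and 17.2% in the model with the block. These intervals are not adjusted for the number of genes. A p that misses the threshold does not show that the groups did not differ, and in bulk RNA a smaller share of dividing cells and less RNA per dividing cell cannot be told apart.

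**Figure D2:**
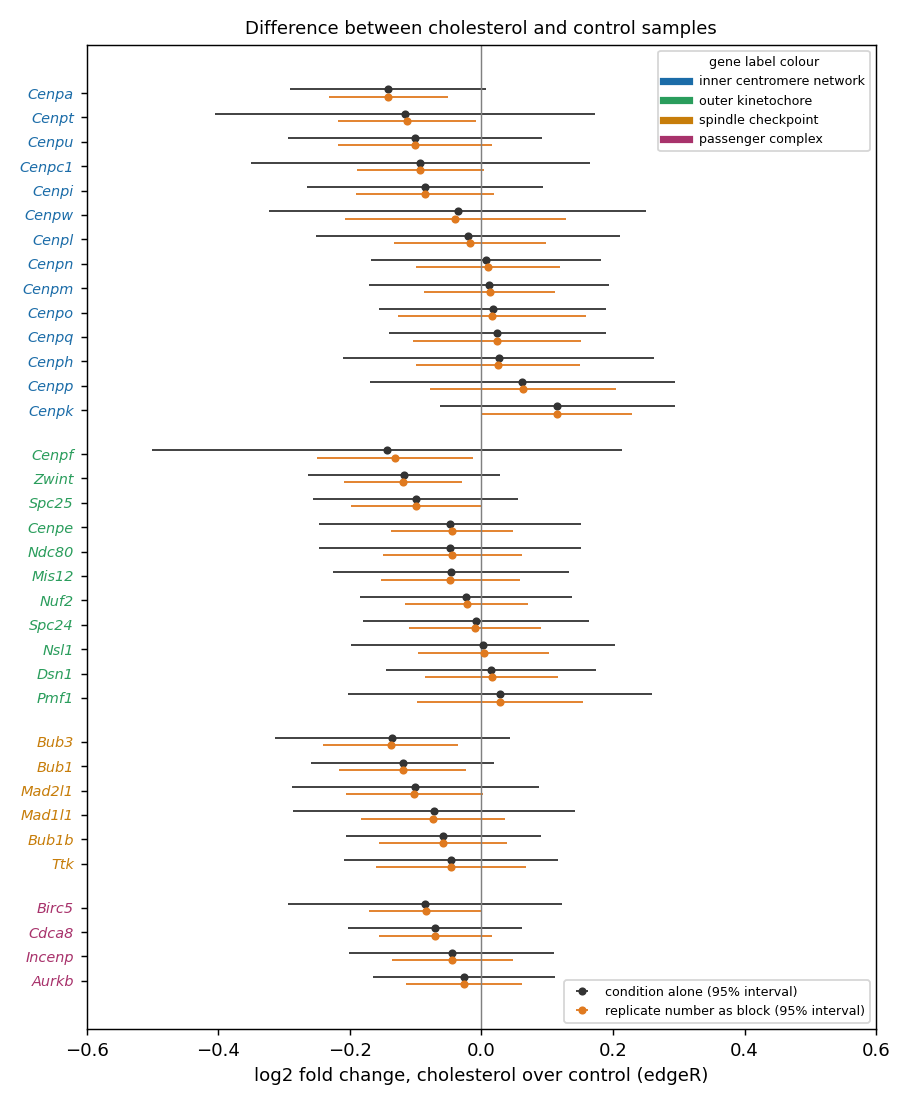
Log2 fold change (cholesterol over control) of each gene in edgeR, sorted within each group. Points and bars give the estimate and its 95% interval without (black) and with (orange) the replicate number in the model. Every black interval spans 0, and 6 orange intervals (Cenpa, Cenpt, Zwint, Cenpf, Bub1 and Bub3) lie below 0, none of which passed the adjusted threshold.

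Although no gene passed, the average was below the control in 25 of 35 genes (71.4%), against 47.9% of all tested genes. Because the list was chosen with earlier results of these data known, such shares only describe it. The median log2 fold change was -0.046, against 0.0064 over all tested genes and 0.015 over the 5526 tested genes in the same FPKM range, of which 43.0% were lower on average. On the FPKM scale the count was 21 of 35 and the median -0.014, against 0.027 over all genes. Without control 3 the count was 20 of 35 and the median -0.012. Values of the cholesterol samples lay wholly below those of the controls for 6 of 35 genes (17.1%; all genes 4.28%) and wholly above them for 0 of 35 (all genes 3.72%). The 6 were Cenpa, Spc25, Zwint, Bub1, Bub3 and Cdca8. On the FPKM scale 1 gene, Cenpa, lay wholly below the controls (all genes 2.94%) and 1 gene, Cenpk, wholly above them (all genes 5.1%), so the one-sided count was not seen on that scale.

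The samples that carried this difference were uneven. Control 3 held the highest CPM of the 6 samples for 19 of the 35 genes, against 24.4% of all tested genes. Cholesterol samples 1 and 3 each held the lowest for 10 of the 35, against 19.5% and 20.1% of all genes. Control 3 was also the library with the most neutrophil, macrophage and mast cell RNA, and the part of that in these values was not tested.

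**Figure D3:**
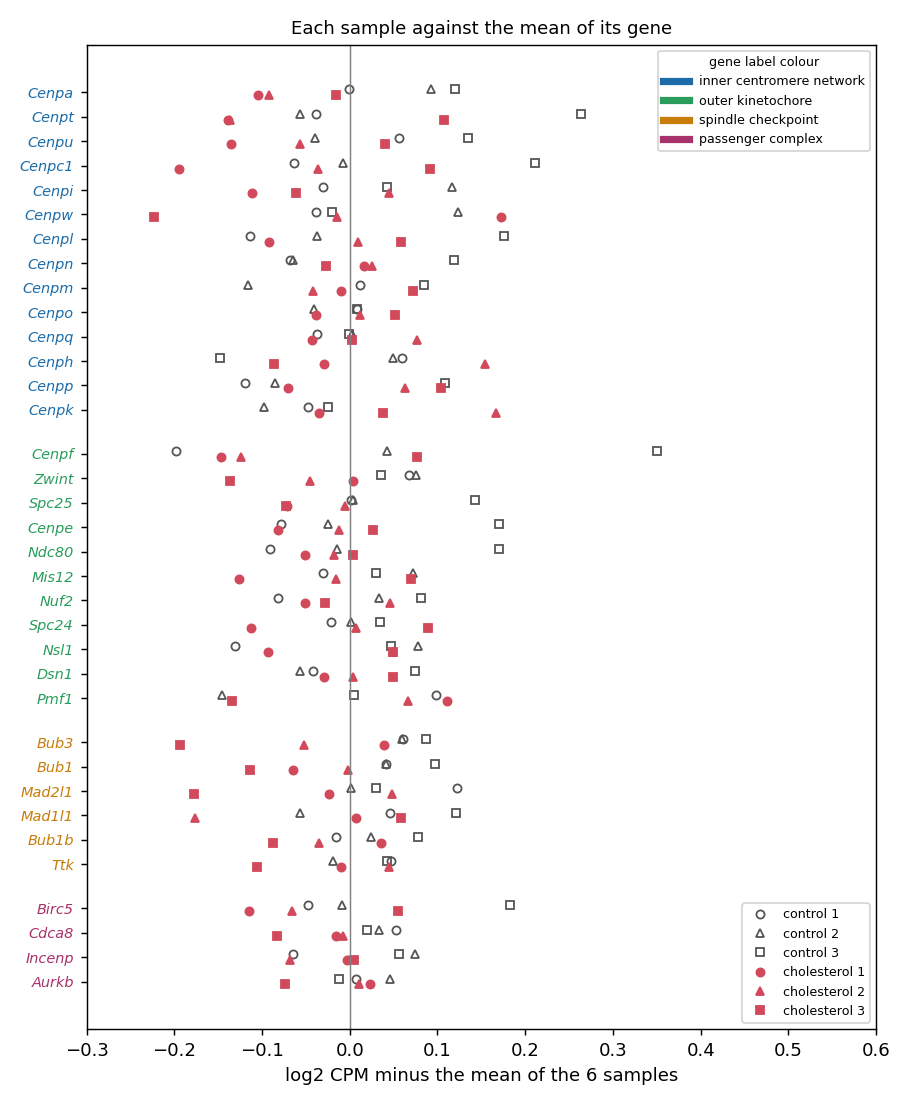
Log2 CPM of each sample minus the mean of the 6 samples of that gene, for all 35 genes. Open grey symbols are controls, filled red symbols are cholesterol samples, and the shape gives the replicate number (circle 1, triangle 2, square 3). Control 3 (open square) is the rightmost point for 19 genes.

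In the inner centromere network, 7 of 14 genes were lower and 7 higher on average, with a median log2 fold change of -0.0064 (0.017 on the FPKM scale). With single samples left out, this median ranged from -0.041 without control 1 to 0.012 without cholesterol sample 1, and it was 0.011 without control 3. Cenpa, the centromeric histone, had 154, 164 and 167.5 CPM in controls 1 to 3 and 143, 145 and 152 CPM in cholesterol samples 1 to 3. Every control exceeded every cholesterol sample, though control 1 and cholesterol sample 3 were close. The log2 fold change was -0.14 (SE 0.06, 95% interval -0.29 to 0.01), and with the block the interval was -0.23 to -0.05 with an edgeR adjusted p of 0.0566. It ranged from -0.17 without control 1 to -0.12 without control 3.

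Cenpt had 60.4, 59.6 and 74.5 CPM in controls and 56.3, 56.4 and 66.8 CPM with cholesterol. Both samples numbered 3 stood above the other 4, and the groups overlapped. Its log2 fold change was -0.12 (SE 0.12), with an interval of -0.22 to -0.01 and an edgeR adjusted p of 0.210 in the block model. The log2 fold change ranged from -0.20 without cholesterol sample 3 to -0.0032 without control 3. Cenpc1, which encodes CENP-C, the linker from CENP-A chromatin to the Mis12 complex, had the same layout, with 96.8, 101 and 117 CPM in controls and 88.4, 98.6 and 108 CPM with cholesterol. Its log2 fold change was -0.09 (SE 0.11), and ranged from -0.16 without cholesterol sample 3 to -0.0056 without control 3.

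Cenpk, a subunit that joins CENP-H, I and M, was the single gene of the 35 that was higher with cholesterol in all same-numbered pairs (2.86% of the genes, against 19.9% of all genes). It had 65.1, 62.9 and 66.2 CPM in controls and 65.7, 75.6 and 69.1 CPM with cholesterol. Cholesterol sample 2 stood apart from the other 5, which lay close together, and the log2 fold change was 0.12 (SE 0.07, 95% interval -0.06 to 0.29), and ranged from 0.06 without cholesterol sample 2 to 0.16 without cholesterol sample 1. Without both samples numbered 2 it was 0.04. Cenpi (log2 fold change -0.09, SE 0.07) and Cenpu (-0.10, SE 0.08) were lower in every pair by CPM. On the FPKM scale Cenpu was higher with cholesterol in pair 1, with 25.28 FPKM in control 1 and 27.15 FPKM in cholesterol sample 1. Its log2 fold change by limma on log2(FPKM + 1) was -0.035. Cenpi ranged from -0.13 without cholesterol sample 2 to -0.05 without control 2, and Cenpu from -0.14 without cholesterol sample 3 to -0.06 without control 3. The log2 fold changes of the remaining 8, Cenph, Cenpl, Cenpm, Cenpn, Cenpo, Cenpp, Cenpq and Cenpw, lay between -0.04 and 0.06, and with single samples left out between -0.14 (Cenpw without cholesterol sample 1) and 0.14 (Cenpp without control 3). Cenpw, with 24.9, 27.8 and 25.2 CPM in controls and 28.8, 25.3 and 21.9 CPM with cholesterol, was the most scattered of these, with the highest and the lowest of its 6 values both in the cholesterol group.

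In the outer kinetochore, 8 of 11 genes were lower on average, with a median log2 fold change of -0.046 (-0.012 on the FPKM scale). With single samples left out, this median ranged from -0.069 without control 1 to 0.013 without control 3, and it was -0.018 without cholesterol sample 1. Zwint, a linker that brings the Rod-Zw10-Zwilch complex to kinetochores, had 210, 211 and 205 CPM in controls and 200.5, 194 and 182 CPM with cholesterol. All controls lay above all cholesterol samples, and the distance was widest between the samples numbered 3. The log2 fold change was -0.12 (SE 0.06, 95% interval -0.26 to 0.03), with a block interval of -0.21 to -0.03 and an edgeR adjusted p of 0.110 with the block. The log2 fold change ranged from -0.15 without cholesterol sample 1 to -0.08 without cholesterol sample 3. Spc25, an Ndc80 complex subunit on the centromere side, had 145.5, 146 and 160 CPM in controls and 138, 145 and 138 CPM with cholesterol. The groups did not overlap, but control 1 and cholesterol sample 2 were nearly equal, and the log2 fold change was -0.10 (SE 0.06), ranging from -0.12 without cholesterol sample 2 to -0.05 without control 3.

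Cenpf, a large protein of the outer fibrous corona, varied most of the 35 genes in the ratio of its highest to its lowest CPM. It had 235, 277 and 343 CPM in controls and 243, 247 and 284 CPM with cholesterol. Control 1 was lowest and control 3 highest, so the cholesterol samples lay inside the range of the controls. Its log2 fold change was -0.14 (SE 0.15, 95% interval -0.50 to 0.21) and ranged from -0.26 without control 1 to 0.01 without control 3. In the block model fitted without both samples numbered 1, Cenpf passed, with a log2 fold change of -0.22 and an edgeR adjusted p of 0.0342, whereas with all samples the adjusted p of that model was 0.202. It was the 1 gene of the 35 called without the samples numbered 1, where 703 of all genes were called lower and 118 higher.

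The other subunits of the Ndc80 complex, which binds the microtubule, showed no separation. Ndc80 had 78.2, 82.5 and 93.8 CPM in controls and 80.4, 82.3 and 83.5 CPM with cholesterol, a log2 fold change of -0.05 (SE 0.08), and Nuf2 and Spc24 had -0.02 (SE 0.07) and -0.0081 (SE 0.07). Ndc80 ranged from -0.10 without control 1 to 0.03 without control 3, Nuf2 from -0.06 to 0.013 without the same samples, and Spc24 from -0.05 without cholesterol sample 3 to 0.04 without cholesterol sample 1. Control 3 alone lay above the other Ndc80 values. In the Mis12 complex the log2 fold changes were -0.05 for Mis12, 0.01 for Dsn1, 0.0025 for Nsl1 and 0.03 for Pmf1, with SE between 0.07 and 0.10, and with single samples left out they lay between -0.09 (Mis12 without cholesterol sample 3) and 0.10 (Pmf1 without cholesterol sample 3). Cenpe, the kinesin that carries chromosomes towards the plate, had a log2 fold change of -0.05 (SE 0.08), ranging from -0.09 without control 1 to 0.03 without control 3, and its 6 values lay between 230.0 and 274 CPM.

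All 6 spindle checkpoint genes were lower on average, with a median log2 fold change of -0.086 (-0.072 on the FPKM scale and -0.068 without control 3). With single samples left out, this median ranged from -0.12 without control 2 to -0.054 without cholesterol sample 3. Bub3 had 237.5, 237 and 242 CPM in controls and 234, 220 and 199 CPM with cholesterol. By CPM the controls were within a narrow range and every cholesterol sample lay below it, least so in sample 1. On the FPKM scale the groups overlapped, with 114 FPKM in cholesterol sample 1 against 111.5 in control 1 and 110.9 in control 3. The log2 fold change was -0.14 (SE 0.07, 95% interval -0.31 to 0.04), with a block interval of -0.24 to -0.04 and an edgeR adjusted p of 0.105. It ranged from -0.19 without cholesterol sample 1 to -0.07 without cholesterol sample 3.

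Bub1, the kinase that phosphorylates histone H2A at centromeres, had 147, 147 and 153 CPM in controls and 137, 143 and 132 CPM with cholesterol. Again the groups did not overlap by CPM but did by FPKM. The log2 fold change was -0.12 (SE 0.06, 95% interval -0.26 to 0.02), with a block interval of -0.22 to -0.02 and an edgeR adjusted p of 0.135 with the block. It ranged from -0.15 without cholesterol sample 2 to -0.09 without cholesterol sample 3. Mad2l1, which encodes the Mad2 protein that captures the anaphase activator Cdc20, had 176, 162 and 165 CPM in controls and 159, 167 and 143 CPM with cholesterol. Cholesterol sample 2 lay among the controls, and the log2 fold change was -0.10 (SE 0.08), ranging from -0.15 without cholesterol sample 2 to -0.04 without cholesterol sample 3. Mad1l1, the kinetochore anchor of Mad2, had a log2 fold change of -0.07 (SE 0.09), ranging from -0.12 without cholesterol sample 3 to -0.0082 without cholesterol sample 2. Bub1b, which encodes BubR1, had a log2 fold change of -0.06 (SE 0.06) and Ttk of -0.05 (SE 0.07). Bub1b ranged from -0.09 without cholesterol sample 1 to -0.03 without cholesterol sample 3, and Ttk from -0.08 without cholesterol sample 2 to -0.0028 without cholesterol sample 3. For Mad2l1, Mad1l1, Bub1b and Ttk the groups overlapped.

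All 4 passenger complex genes were lower on average on the CPM scale, with a median log2 fold change of -0.057, and 3 of 4 on the FPKM scale, where the median was -0.026. With single samples left out, the median on the CPM scale ranged from -0.070 without control 1 to -0.033 without control 3. Cdca8 had 306, 301.5 and 299 CPM in controls and 291.5, 293 and 278 CPM with cholesterol. The groups did not overlap, although the gap between control 3 and cholesterol sample 2 was smaller than the range within either group. Its log2 fold change was -0.07 (SE 0.05, 95% interval -0.20 to 0.06), ranging from -0.09 without cholesterol sample 2 to -0.04 without cholesterol sample 3. Birc5 had 327, 336 and 384 CPM in controls and 312, 323 and 351 CPM with cholesterol, lower in each same-numbered pair but with sample 3 of either group above the other 2. Its log2 fold change was -0.09 (SE 0.09), ranging from -0.13 without cholesterol sample 3 to -0.012 without control 3. Incenp had 403, 444 and 439 CPM against 421, 402 and 423 CPM, and Aurkb 224, 230.2 and 221 CPM against 227, 225 and 212 CPM. Both overlapped, with log2 fold changes of -0.04 (SE 0.06) and -0.03 (SE 0.06), Incenp ranging from -0.08 without control 1 to -0.02 without control 2 and Aurkb from -0.04 without cholesterol sample 1 to 0.0062 without cholesterol sample 3.

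Samples with the same number deviated together, and the differences were therefore also read within same-numbered pairs. Of the 35 genes, 12 (34.3%) were lower with cholesterol in all 3 pairs, against 20.1% of all tested genes, and 10 on the FPKM scale. The 12 by CPM were Cenpa, Cenpc1, Cenpi, Cenpt and Cenpu of the inner network, Spc25 and Zwint of the outer kinetochore, Bub1, Bub3 and Mad1l1 of the checkpoint, and Birc5 and Cdca8 of the passenger complex. On the FPKM scale Cenpu and Bub3 dropped out, both being higher with cholesterol in pair 1. The mean log2 CPM of the 35 genes differed by -0.026, -0.0079 and -0.10 in pairs 1 to 3, so that pair 3 held most of the difference. In the checkpoint the mean differences were -0.05, -0.04 and -0.18, in the outer kinetochore -0.013, -0.010 and -0.10, and in the passenger complex -0.015, -0.07 and -0.09. The inner network had -0.03, 0.02 and -0.07, with pair 2 the other way.

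**Figure D4:**
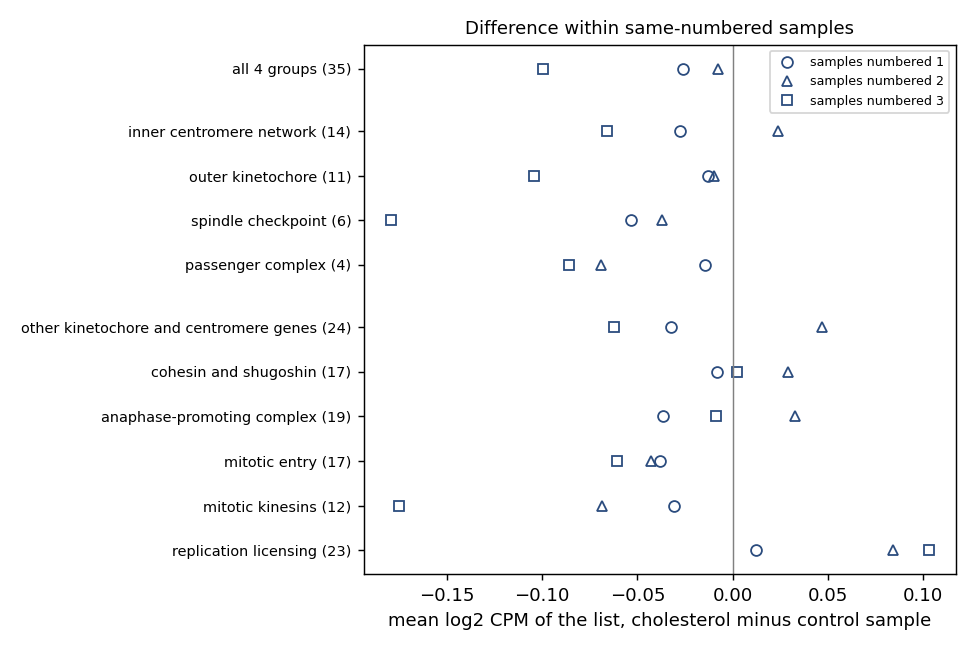
Mean log2 CPM of each gene list, cholesterol sample minus the control sample of the same number (circle 1, triangle 2, square 3), with the number of genes in brackets. The spindle checkpoint lies left of 0 in every pair (-0.05, -0.04 and -0.18), as do the outer kinetochore, the passenger complex, mitotic entry and mitotic kinesins, whereas replication licensing lies right of 0 in every pair.

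Some of the genes differed between the replicate numbers. In the model with the block, 8 of 35 genes (22.9%) differed between replicate numbers at an edgeR adjusted p of 0.05, against 46.3% of all tested genes and 53.1% of those in the same FPKM range. They were Cenpt (edgeR adjusted p = 0.000864), Cenpf (0.00105), Cenpc1 (0.00139), Birc5 (0.00600), Cenpe (0.0286), Nsl1 (0.0313), Cenpl (0.0325) and Mad1l1 (0.0330). The ratio of the highest to the lowest CPM of the 6 samples had a median of 1.17 over the 35 genes, 1.25 over genes in the same FPKM range and 1.38 over all tested genes. The median SD of log2 CPM among the 3 controls was 0.08, against 0.12 and 0.18. The difference between these genes and other genes was not tested.

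Other genes of chromosome segregation were read from lists in the same way. The 24 other kinetochore and centromere genes tested, such as those for Knl1, the Mis18 and Ska complexes and the CENP-A chaperone Hjurp, had a median log2 fold change of -0.021, with 16 lower and 8 higher on average and 0 called with or without the block. Among these Spdl1 (Spindly, a dynein adaptor) had 61.7, 59.6 and 64.6 CPM in controls and 56.3, 57.8 and 54.8 CPM with cholesterol. The groups did not overlap, and the log2 fold change was -0.14 (SE 0.06, edgeR adjusted p = 0.139 with the block). Of the 24 genes, 1 lay wholly below the controls and 1 wholly above them, against 4.28% and 3.72% of all genes. Ckap5, a microtubule polymerase, had a log2 fold change of -0.14 (SE 0.09, edgeR adjusted p = 0.0875 with the block). The 17 genes of cohesin and shugoshin, which hold sister chromatids together, had a median of -0.011, with 10 lower, 7 higher and 0 called. Pds5b had the smallest p of this list with condition alone, with a log2 fold change of 0.09 (SE 0.06). Its cholesterol values lay wholly above the controls, as for 1 of the 17 genes, and 0 lay wholly below them. Nipbl, the cohesin loader, had the smallest p with the block, with a log2 fold change of 0.12 (SE 0.04, edgeR adjusted p = 0.128), and was chosen after its values were seen. With single samples left out, the kinetochore median ranged from -0.051 without control 2 to 0.012 without cholesterol sample 1, and was 0.0085 without control 3. The cohesin median ranged from -0.022 without cholesterol sample 3 to 0.028 without control 3. On the FPKM scale the medians were 0.0030, with 12 of 24 lower, and 0.021, with 5 of 17 lower.

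The anaphase-promoting complex, the ubiquitin ligase that the checkpoint restrains, had a median log2 fold change of 0.014 over 19 genes, with 8 lower and 11 higher on average. With single samples left out, this median ranged from -0.0067 without control 3 to 0.058 without control 1. On the FPKM scale it was 0.033, with 6 of 19 lower. Ube2s, its chain-elongating E2 enzyme, had 535, 477 and 553 CPM in controls and 449, 464.5 and 495 CPM with cholesterol. Each cholesterol sample lay below its same-numbered control, although cholesterol sample 3 exceeded control 2. It was the only gene of these 3 lists to pass in the block model, with a log2 fold change of -0.15 (SE 0.04, edgeR adjusted p = 0.0476), and it did not pass with condition alone (SE 0.08, adjusted p = 0.9998). Over all tested genes the block model called 1.65% higher and 5.2% lower. Ube2c, the chain-initiating E2 enzyme, had a log2 fold change of -0.19 with the block (SE 0.05, edgeR adjusted p = 0.0592).

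Around these, the 17 genes of mitotic entry had a median log2 fold change of -0.06, with 11 lower and 6 higher and a range of -0.21 to 0.14, and the 12 mitotic kinesins a median of -0.08, with 11 lower and 1 higher and a range of -0.20 to 0.01. With the block, 2 of 17 and 1 of 12 were called lower, against 5.2% of all genes. Over the same omissions of 1 sample, the medians ranged from -0.09 without control 3 to -0.04 without control 2 for mitotic entry and from -0.12 without control 1 to -0.03 without control 3 for the kinesins. On the FPKM scale they were -0.028, with 9 of 17 lower, for mitotic entry and -0.056, with 11 of 12 lower, for the kinesins. The 23 replication licensing genes, which act in G1 and S phase, went the other way, with a median of 0.07, 4 lower and 19 higher, a range of -0.08 to 0.17 and 0 called in either model. This median ranged from 0.02 without control 3, where 9 of 23 were lower, to 0.12 without control 1. On the FPKM scale it was 0.092, with 1 of 23 lower. A list of 9 proliferation genes had a median of 0.0044 (-0.036 to 0.012 with single samples left out, and 0.035 on the FPKM scale), with 4 lower and 5 higher and 1 called higher with the block, against 1.65% of all genes.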

How the data were processed

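The authors deposited expected counts per gene, that is, estimated counts that need not be whole, for 3 control and 3 cholesterol samples, and a table of normalized values whose unit is not named. The authors made the latter by a scaling for depth and length that the sources do not describe, and the deposited values were read as FPKM, because count, total and normalized value implied a gene length that was constant across samples (median CV 0.28% over 6115 genes). The submitters' processing notes list HISAT2 2.0.4, Bowtie2 2.2.5, RSEM 1.2.12, DESeq2 1.4.5 and GRCm38.p6, with no role given. Per the labels, polyadenylated RNA was read as single 50-base ends. Total counts were close, at 19826797 to 20061702 per sample.

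Groups and replicate numbers came from the sample labels. The tests had been planned for whole counts, so expected counts were rounded and fitted with edgeR 4.0.16 (R 4.3.3): filterByExpr (minimum count 10, total 15), TMM, robust quasi-likelihood test, Benjamini-Hochberg over 11277 genes, adjusted p threshold 0.05, condition alone. CPM are TMM-normalized. Alternatives were the replicate number as a block, DESeq2 1.42.0, RLE size factors, other filters, limma 3.58.1 on log2(FPKM + 1 or 0.1), and samples left out. Scripts were tested on simulated data. Replicate numbers occur in both groups in the labels, which do not say what they stand for. Across genes, the deviations of the 2 samples sharing a number correlated at 0.729, 0.348 and 0.825, so the numbers were taken to pair the samples. The smallest chi-square per degree of freedom between 2 libraries was 8.20, so none was a copy of another. An exact permutation test of 3 against 3 allows no p below 0.1, and none is given.

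The 35 genes and the other lists were chosen with earlier results of these data known. All 35 are described. Other genes of the kinetochore, cohesin and anaphase-promoting complex lists were named if they passed a threshold with or without the block or were among the 5 with the smallest p with condition alone (the rule did not name the model, and this was settled afterwards), and the remaining lists are given by count, median and range. Promoter windows were taken from RefSeq, and shared 50-base reads were counted on GENCODE transcripts. Gene symbols follow the files, and all 35 matched RefSeq genes.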

Additional observations from a re-analysis of the deposited data

How the results depend on the processing

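No gene of the 35 passed in any of the fits to all 6 samples, the pairing by replicate number included, and the replicate block changed no call among them. Of the 35 log2 fold changes, 16 kept their sign under all 18 alternatives run for each, whereas 19 turned sign under at least 1, all of them without passing the threshold. With samples left out, the number of the 35 called lower ranged from 0 to 1 (Cenpf, in the block model without both samples numbered 1), and the number called higher was 0. Over all genes, 1 was called higher and 0 lower with condition alone, against 186 and 586 with the replicate block, 3 and 28 with DESeq2, 41 and 248 with DESeq2 and the block, and 161 and 559 with the block and RLE size factors, the last chosen after seeing the data. With single samples left out these counts were 1 higher throughout and from 0 to 7 lower, the latter without control 3. In block models without both samples numbered 1, 2 or 3, 118, 67 and 210 were called higher and 703, 229 and 516 lower. The median of the outer kinetochore ranged from -0.069 to 0.013 with single samples left out, and it was positive without control 3. The median of the passenger complex was -0.02577 with limma on log2(FPKM + 1) and -0.02591 with a pseudocount of 0.1, and by the deposited FPKM values 2 genes had groups that did not overlap, Cenpa (lower) and Cenpk (higher), against 6 by CPM, all lower. The number of genes that differed between replicate numbers, a test added after seeing the data, was 8 in every setting run. The cause of these shifts was not tested. Log2 fold changes that turned sign with single samples left out ranged from -0.050 to 0.078 for Cenph, -0.076 to 0.069 for Cenpl, -0.039 to 0.059 for Cenpm, -0.021 to 0.072 for Cenpn, -0.0017 to 0.040 for Cenpo, -0.011 to 0.052 for Cenpq, -0.14 to 0.061 for Cenpw, -0.098 to 0.031 for Ndc80, -0.064 to 0.013 for Nuf2, -0.053 to 0.044 for Spc24, -0.091 to 0.0038 for Mis12, -0.0081 to 0.058 for Dsn1, -0.056 to 0.049 for Nsl1, -0.033 to 0.10 for Pmf1, -0.093 to 0.031 for Cenpe, -0.26 to 0.012 for Cenpf and -0.045 to 0.0062 for Aurkb. In block models, without both samples numbered 1 they were -0.025 for Cenpn, 0.033 for Spc24 and -0.011 for Nsl1, without both samples numbered 2 they were -0.015 for Cenph, -0.017 for Cenpm, -0.030 for Cenpn, -0.00092 for Cenpo, -0.0010 for Cenpq, 0.011 for Cenpw, -0.0066 for Dsn1, -0.062 for Pmf1 and 0.0055 for Incenp, and without both samples numbered 3 they were 0.033 for Cenpl, 0.034 for Cenpw, 0.016 for Ndc80, 0.020 for Nuf2, 0.0035 for Cenpe and 0.0017 for Ttk. With limma on log2(FPKM + 1) and + 0.1, Cenpl was 0.01376 and 0.01448, Nuf2 0.009348 and 0.009462, Spc24 0.02814 and 0.0285, and Aurkb 0.001709 and 0.001717, and with at least 10 counts in every sample Nsl1 was -0.002533. Fits that leave out 1 sample of a group assume that the remaining samples vary like those of the other group. The 35 genes had mean counts of at least 459.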
